A study of Homo sapiens with 6 samples.

Results

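The DEAD box (DDX) and DEAH box (DHX) genes encode the main families of RNA helicases of human cells, and 48 of them were described here in AGO2 pull-downs of breast cancer cells that had received a miR-99b-5p mimic. Members were the protein-coding genes whose symbol starts with DDX or DHX followed by a digit and whose unstranded counts summed to at least 200 over the 4 mimic libraries, which 48 of 54 such genes reached (32 DDX and 16 DHX genes, among 13078 genes of any kind that reached it). The 6 genes under this minimum had sums of 11 to 71. The member nearest to the limit was DHX58 with a sum of 579, and the nearest gene outside it was DDX47 with 71.

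Helicases of these families bind RNA through a core of paired RecA-like domains and use ATP to separate RNA strands or to displace proteins from RNA. The DEAD box proteins open short duplexes locally, whereas many DEAH box proteins move along a strand and are switched on by partners with a G-patch motif. Between them they serve nearly every step in the life of an RNA, from transcription and splicing through export, translation and decay to the assembly of ribosomes, and DDX6 acts next to the CCR4-NOT complex when microRNAs silence a message. The values below are amounts of the mRNAs that encode these proteins, in RNA pulled down with AGO2 and in RNA left behind, and not amounts of the proteins.

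The cells were MDA-MB-231, an established human triple-negative breast cancer line, which received either the miR-99b-5p mimic or a scrambled oligonucleotide as control at 25 nM and were collected after 18 hours. AGO2, the Argonaute protein that carries mature microRNAs to their targets, was immunoprecipitated (AGO2-IP), and the RNA that stayed behind was kept as the flow-through. Mimic cells gave 2 biological replicates with an AGO2-IP and a flow-through library each, while the scrambled control gave 1 library of each fraction, so comparisons with the control have no replicate check on the control side. Both control libraries stand in a supplementary table as replicates with no fraction named, and their fractions were taken from the sample labels. The IgG pull-down of the study was not analysed here, so RNA bound to AGO2 could not be told apart from background of the pull-down. An AGO2-IP collects the targets of all microRNAs in the cell, so a high value does not tie an mRNA to miR-99b-5p.

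The libraries differed in ways that touch every value below. Counts on genes ran from 38022779 to 48544756 in the mimic libraries and were 8076375 and 7772149 in the control AGO2-IP and flow-through, where 76.7% and 73.7% of read pairs mapped to several places, against 2.38% to 19.2% in the mimic libraries. Transcripts of the mitochondrial genome made up 43.4% of the control flow-through and 3.48% of the control AGO2-IP in gene counts, and at most 0.125% of any mimic library. Of the markers of this mesenchymal line, VIM, CD44, AXL and CAV1 had at least 58.98 CPM (a gene's counts per 1000000 counts on genes) in every library, but SPARC had at most 1.73 CPM. ESR1 and PGR had at most 0.99 CPM each, and the epithelial markers CDH1 and EPCAM at most 3.96 and 11.8 CPM.

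The microRNA itself and the sites that could pair with its seed are shown first, because the series was designed to find the transcripts that this microRNA brings to AGO2. Mature miR-99b-5p has 22 nucleotides and is encoded at chr19:51692618-51692639 on the plus strand (RefSeq, GRCh38.p14). The capitals mark its seed, bases 2 to 8.

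hsa-miR-99b-5p: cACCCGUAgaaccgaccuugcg

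A transcript that pairs with bases 2 to 7 carries ACGGGT, read on the strand of the transcript only. A match to bases 2 to 8 reads TACGGGT. With an A behind the shorter match the letters are ACGGGTA, and the longest form joins both extensions. All of these contain the shorter match, so that a transcript with any of them was counted there too. In the canonical transcripts, 6 of the 48 members (12.5%) held ACGGGT, where 17.1% of the 11747 protein-coding genes tested did. A longer match was found in 2 members (4.17%, against 5.71%), and a match in the 3′ untranslated region in 1 member (2.08%, against 6.67%). Both longer matches and the match in the 3′ untranslated region are printed as DNA of the transcript strand, with the matching letters in capitals.

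DHX29: attgcagagACGGGTAtcactattc
DHX32: attggaacaTACGGGTttgtataaa
DDX49: gcttaataaACGGGTcttttgact

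The match in DHX29, a helicase that helps ribosomes through structured leaders, lay in the coding sequence, in exon 18 of 27 (chr5:55272142-55272148, GRCh38, minus strand). That in DHX32 lay in the 5′ untranslated region, in exon 1 of 11 (chr10:125880922-125880928, minus strand). That in DDX49, a nucleolar helicase, lay in the 3′ untranslated region, in exon 13 of 13 (chr19:18928610-18928615, plus strand). The shorter matches of DDX41, DHX36 and DHX58 lay in coding sequence, in the 5′ untranslated region and in coding sequence, respectively. A match of letters is a description and not a measured site.

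In the AGO2-IP the helicase mRNAs took a larger share of the counts than in the flow-through. The 48 genes together held 0.831% and 0.930% of the gene counts of mimic replicates 1 and 2 in the AGO2-IP, and 0.397% and 0.303% of those in the flow-through. In the control they held 0.306% of the AGO2-IP (95% Wilson interval 0.302% to 0.309%) and 0.125% of the flow-through (0.122% to 0.127%). Such shares cannot tell more of these mRNAs from less of other RNA, and the interval covers counting error only. Per kilobase of canonical transcript, the most abundant member mRNAs of the mimic AGO2-IP were DDX5, DHX15 and DDX3X, with 302, 297 and 190 CPM per kb in replicate 1 and 219, 341 and 486 in replicate 2. DDX39A, an export helicase, led instead in both mimic flow-through libraries and in the control flow-through, with 128, 114 and 31.8 CPM per kb.

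The question of the main comparison was which helicase mRNAs were higher in the AGO2-IP than in the flow-through of mimic cells. DHX15, DDX3X, DDX42, DHX9, DDX1, DDX5 and DDX50 stood highest, with fitted AGO2-IP to flow-through ratios of log2 2.10 to 3.23. At the other end DHX37, DDX49, DHX30, DDX51 and DDX19B had log2 fold changes of -1.96 to -1.41. The median over the 48 members was 0.74, beside -0.11 over all 13078 genes tested. A log2 fold change of at least 1 was found for 17 members (20% of all genes tested) and one of at most -1 for 6 members (26.9% of all genes).

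No member passed the call of the main test, edgeR's quasi-likelihood test with both a Benjamini-Hochberg adjusted p-value up to 0.05 and a log2 fold change of 1 or more in size, by which 0.245% of all genes were called higher and 0.413% lower in the AGO2-IP. An unadjusted p-value under 0.05 was reached by 11 members with higher values (10.6% of all genes) and 4 members with lower values (13.1%). With the replicate number as a block, which the labels allow because each biological replicate gave both fractions, 7 members were called higher (4.6% of all genes) and 0 lower (5.08%). These were DHX15, DDX3X, DDX42, DHX9, DDX1, DDX5 and DDX50. The SE was larger with the block than without it for all of these but DDX1. For DHX15 it rose from 0.68 to 0.74, with log2 fold changes of 3.23 and 3.36, while edgeR's unadjusted p-value fell from 5.54e-04 to 5.11e-06. Its log2 fold change in units of its SE was thus not larger with the block. The degrees of freedom of these fits were not recorded, and why the p-value fell was not tested. The biological coefficient of variation, edgeR's estimate of spread between replicates over all genes, was 0.53 without the block and 0.45 with it. Agreement within replicate pairs was not tested for the called members. Without flow-through replicate 1, edgeR called 17 members higher (18.8% of all genes) and 6 lower (18.5%) without the block. Without flow-through replicate 2 it called 3 higher, DHX15, DDX42 and DHX9 (2.89%), and 0 lower (4.21%). In both cases the flow-through was 1 library, and the spread came from the AGO2-IP pair alone. PyDESeq2 without the block called 8 higher, the same 7 and DDX46 (6.45% of all genes), and DDX49 lower (8.26%).

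**Figure D1:**
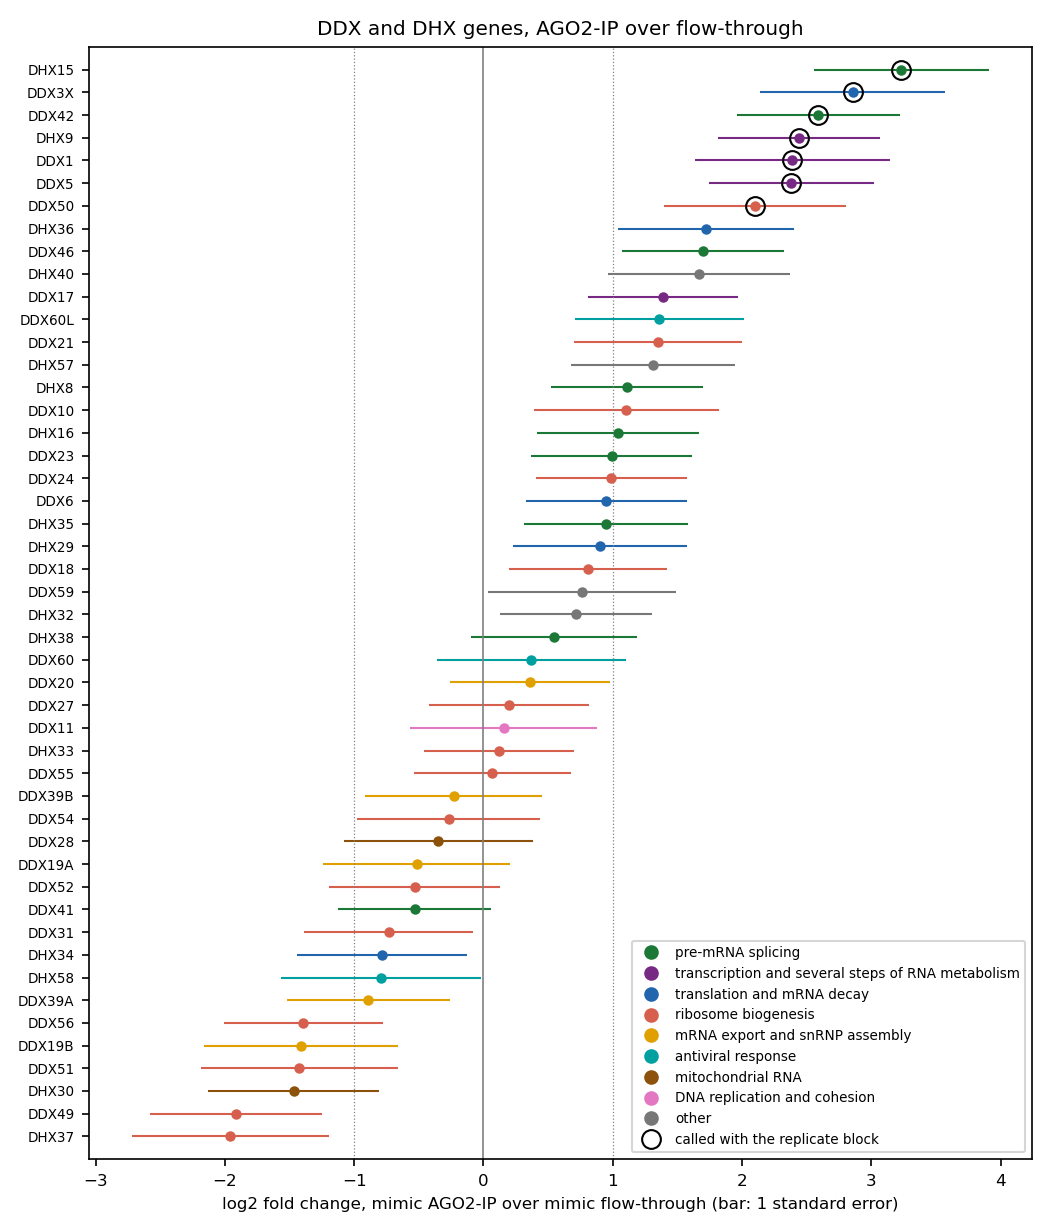
Fitted log2 fold change of mimic AGO2-IP over mimic flow-through (x axis) for each of the 48 members, coloured by role, with bars of 1 standard error and rings around the 7 members called with the replicate block. Values run from -1.96 for DHX37 to 3.23 for DHX15, and the rings all lie above 2.

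The groups of libraries could also be compared without a model. After scaling by trimmed mean of M-values (TMM), both AGO2-IP libraries lay above both flow-through libraries for 25 members, where 28.1% of all genes did so, and below both for 10 members (28.5%). The libraries overlapped for 13 members. Both replicate pairs had the same direction for 40 of the 48 members, but the share of all genes that did so was not computed.

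The splicing helicases held the highest single value. DHX15, which releases the intron lariat and takes the spliceosome apart (GRCh38 chr4:24517441-24584554, minus strand), had 891 and 1023 CPM in the mimic AGO2-IP and 167 and 48.9 CPM in the mimic flow-through. All values of the AGO2-IP lay above those of the flow-through, and the control libraries had the same order with 250 CPM (95% Wilson interval 240 to 261) and 40.4 CPM (36.2 to 45.1). Its log2 fold change was 3.23 (SE 0.68, n = 2 per group), with a Benjamini-Hochberg adjusted p-value of 0.0543 in edgeR, the lowest of the members, and 5.81e-04 with the replicate block.

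DDX42, a partner of the U2 snRNP at the branch site, had 333 and 508 CPM in the mimic AGO2-IP and 94.5 and 48.2 CPM in the flow-through. The groups did not overlap, and the log2 fold change was 2.59 (SE 0.63), with a Benjamini-Hochberg adjusted p-value in edgeR of 0.0661, and of 0.0134 with the block. DDX46, which prepares the U2 snRNP for the branch site, had 214 and 293 CPM against 118 and 45.3 CPM and a log2 fold change of 1.70 (SE 0.63). Its adjusted p-values in edgeR were 0.145 and, with the block, 0.109.

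Of the 9 splicing helicases, 8 had a log2 fold change above 0, with a median of 1.04. The AGO2-IP libraries lay above the flow-through for 7 of them (28.1% of all genes). DHX8, DHX16, DDX23, DHX35 and DHX38, which act at successive steps of the splicing cycle, had values of 0.55 to 1.11, and none of the 5 had an unadjusted p-value under 0.05. With the GC trend removed their values were 1.02 to 1.89, where DHX38 moved from 0.55 to 1.39 and DHX16 from 1.04 to 1.89. Once the block was added, all of them but DHX35 were called higher, as were 14.9% of all genes. The exception in direction was DDX41, a spliceosome-associated helicase that also senses DNA, which had 51.2 and 60.5 CPM in the AGO2-IP against 76.5 and 78.5 CPM. Its log2 fold change of -0.53 (SE 0.59) turned to 0.32 once the trend on GC content was removed.

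The helicases that act in transcription and at several other steps were the group with the highest median, 2.39 over 4 genes. Each of the 4 had its AGO2-IP libraries above its flow-through libraries (28.1% of all genes). DDX5, a transcriptional coactivator that also takes part in microRNA processing by Drosha (chr17:64498254-64508199, minus strand), had 1113 and 807 CPM in the mimic AGO2-IP and 286 and 98.2 CPM in the flow-through. The lowest AGO2-IP value was well above the highest flow-through value, and the log2 fold change was 2.38 (SE 0.64), with Benjamini-Hochberg adjusted p-values in edgeR of 0.0820 and, with the block, 0.0107. Its close relative DDX17 had 468 and 609 CPM against 245 and 165 CPM and a smaller log2 fold change of 1.39 (SE 0.58). The difference between these paralogs was not tested.

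DHX9, also known as RNA helicase A, which resolves RNA duplexes and R-loops (chr1:182839347-182887982, plus strand), had 477 and 679 CPM in the mimic AGO2-IP and 153 and 66.4 CPM in the flow-through. DDX1, a part of the tRNA ligase complex, had 415 and 177 CPM against 99.96 and 21.0 CPM. Neither gene overlapped between fractions, and their log2 fold changes were 2.44 (SE 0.63) and 2.39 (SE 0.75). Both were called with the replicate block, with Benjamini-Hochberg adjusted p-values in edgeR of 0.0160 and 0.0161.

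Among the helicases of translation and mRNA decay, DDX3X, which opens structured leaders for the ribosome (chrX:41333348-41364472, plus strand), had the highest CPM of any member in any library. It had 883 and 2252 CPM in the mimic AGO2-IP and 344 and 115 CPM in the flow-through. The replicates of each fraction were far apart, but the fractions did not overlap. The log2 fold change was 2.86 (SE 0.72), with Benjamini-Hochberg adjusted p-values in edgeR of 0.0718 and, with the block, 0.00462.

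DHX36, which unwinds G-quadruplexes, had 83.6 and 74.1 CPM in the mimic AGO2-IP against 41.2 and 9.93 CPM and a log2 fold change of 1.72 (SE 0.68). DDX6, the decay helicase that stands closest to microRNA silencing, had 233 and 273 CPM against 207 and 68.3 CPM. Its AGO2-IP value in replicate 1 was only slightly above the flow-through of the same replicate, and its log2 fold change of 0.95 (SE 0.62) had an adjusted p-value in edgeR of 0.365. DHX29, one of the members with a longer seed match, had 0.90 (SE 0.67). DHX34, which acts in nonsense-mediated decay, was the 1 member of these 5 below 0, at -0.79 (SE 0.66), and it turned to 0.57 after the GC trend was removed.

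**Figure D2:**
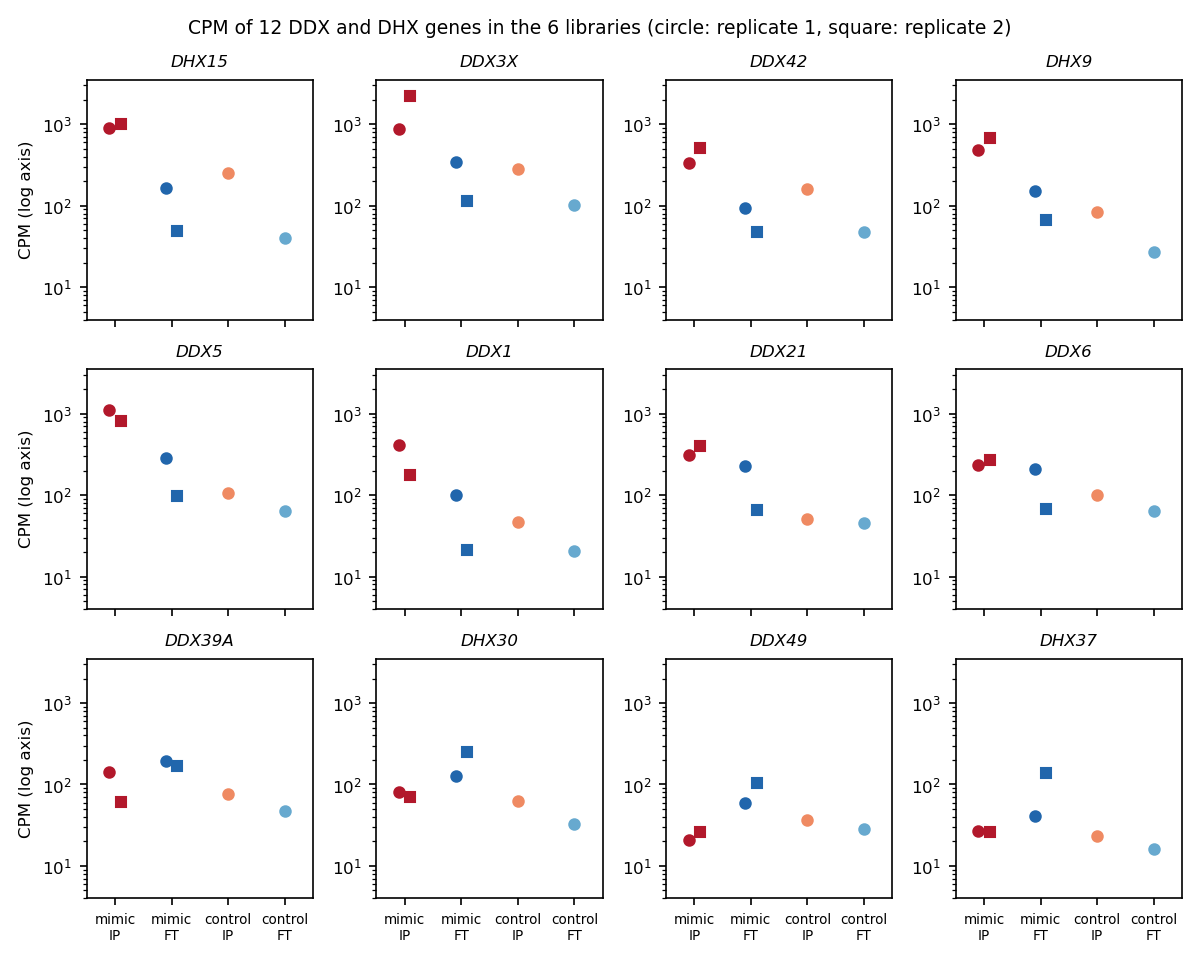
CPM (log y axis) of 12 members in the 6 libraries, with mimic AGO2-IP (red), mimic flow-through (blue), control AGO2-IP (orange) and control flow-through (light blue), and circles and squares for replicates 1 and 2. For DHX15, DDX3X, DDX42, DHX9, DDX5 and DDX1 both red points lie above both blue points, whereas for DHX30, DDX49 and DHX37 both lie below, with a wide gap between the flow-through replicates of DHX37.

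The ribosome biogenesis helicases spread over nearly the whole range, with a median of 0.07 over 15 genes, 8 of them above 0. The AGO2-IP libraries lay above the flow-through for 5 of these genes and below it for 4, close to the shares of all genes, 28.1% and 28.5%. DDX50, a nucleolar paralog of DDX21, had 222 and 121 CPM in the mimic AGO2-IP and 68.2 and 16.9 CPM in the flow-through. Its log2 fold change was 2.10 (SE 0.70), with Benjamini-Hochberg adjusted p-values in edgeR of 0.121 and, with the block, 0.0368.

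DDX21, which couples rRNA transcription with processing, had 310 and 397 CPM against 230 and 64.9 CPM and a log2 fold change of 1.35 (SE 0.65). At the low end, DDX49 had 20.9 and 26.2 CPM in the AGO2-IP, with 59.8 and 104 CPM in the flow-through, and DHX37, which works on the small ribosomal subunit, 26.9 and 25.8 CPM against 41.3 and 139 CPM. Both genes were lower in every AGO2-IP library than in any flow-through library. Their log2 fold changes of -1.92 (SE 0.67) and -1.96 (SE 0.76) had adjusted p-values in edgeR of 0.131 and 0.159.

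DDX51 and DDX54, of the large ribosomal subunit, depended on the replicate. DDX51 had 17.1 and 14.0 CPM in the AGO2-IP, with 18.6 and 55.1 CPM in the flow-through, and DDX54 had 295 and 150 CPM against 135 and 342 CPM. The CPM of DDX51 did not overlap between fractions, but after TMM scaling the fractions of both genes overlapped. DDX54 differed by 1.31 on the log2 scale in pair 1 and by -1.44 in pair 2.

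The remaining classes held between 1 and 5 genes each. Of the 5 helicases of mRNA export and snRNP assembly only DDX20, a component of the SMN complex, was above 0, and the median was -0.52. DDX39A had 142 and 61.2 CPM in the mimic AGO2-IP and 192 and 171 CPM in the flow-through, a log2 fold change of -0.89 (SE 0.63). Its paralog DDX39B, a core helicase of the TREX export complex, had -0.23 (SE 0.68), but all of its exon bases are shared with the annotated read-through gene ATP6V1G2-DDX39B on the same strand, so its 26.2, 13.7, 35.4 and 13.1 CPM in the 4 mimic libraries are uncertain. DDX19B, a helicase of the nuclear pore, had -1.41 (SE 0.75) from 2.89 and 2.68 CPM against 8.15 and 6.39 CPM, with 21.7% of its exon bases shared in the same way, and its paralog DDX19A had 64.2% shared.

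DHX30, which assembles mitochondrial ribosomes, had 79.9 and 70.7 CPM in the AGO2-IP, with 127 and 251 CPM in the flow-through and a log2 fold change of -1.47 (SE 0.66). Among the antiviral genes, DDX60L had 1.36 (SE 0.65), DDX60 had 0.37 (SE 0.73), and DHX58, the RIG-I-like receptor LGP2, had -0.79 (SE 0.77) from at most 5.94 CPM in any library. The less characterised DHX40, DHX57, DDX59 and DHX32 had values of 0.72 to 1.67. DDX11, a DNA helicase of sister chromatid cohesion, stood at 0.16 with overlapping fractions.

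These values moved with the GC content of the transcripts. Over the 48 members the log2 fold change and the GC content of the canonical transcript had a Spearman's rho of -0.653 and a Pearson's r of -0.697, beside a rho of -0.545 over 11747 protein-coding genes. These are correlations across genes, which share the same 4 libraries and are not independent replicates. The 24 members with a GC content below 48.4% had a median log2 fold change of 1.36 with 23 above 0, and the 24 above it a median of -0.43 with 9 above 0.

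The flow-through replicates differed along the same axis. The difference between flow-through replicates 1 and 2 had a rho of -0.855 with GC content over the members (-0.755 over all protein-coding genes), and that between AGO2-IP replicates 0.232. The flow-through replicates differed by a factor of 2 or more for 23 members and the AGO2-IP replicates for 3 members. Within replicate pair 1 the AGO2-IP to flow-through difference had a rho of -0.269 with GC content, and within pair 2 of -0.779. The median over members was 0.61 in pair 1 and 0.50 in pair 2, beside -0.03 and -0.01 over all genes.

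With each library's trend on GC content removed, the median over members was 0.56, beside 0.07 over all genes, and the rho with GC content was -0.197. Of the 5 lowest members, DHX37 came to -0.46, DDX49 to -0.59, DHX30 to -0.34 and DDX51 to -0.23, whereas DDX19B stayed at -1.35. Some members with a low GC content also moved towards 0, with DDX6 at 0.38, DDX60L at 0.59 and DDX18 at 0.09. DHX15 was still highest, at 2.85. Without the block 6 members were then called higher (4.58% of all genes), DHX15, DDX3X, DDX42, DHX9, DDX5 and DHX16, and none lower (2.24%). With the block and the GC trend removed together, 15 members were called higher (14.9% of all genes) and none lower (9.04%). The splicing class then had the most, with 6 of its 9 genes called, the transcription class had all 4, and the ribosome biogenesis class had DDX50 alone of 15.

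**Figure D3:**
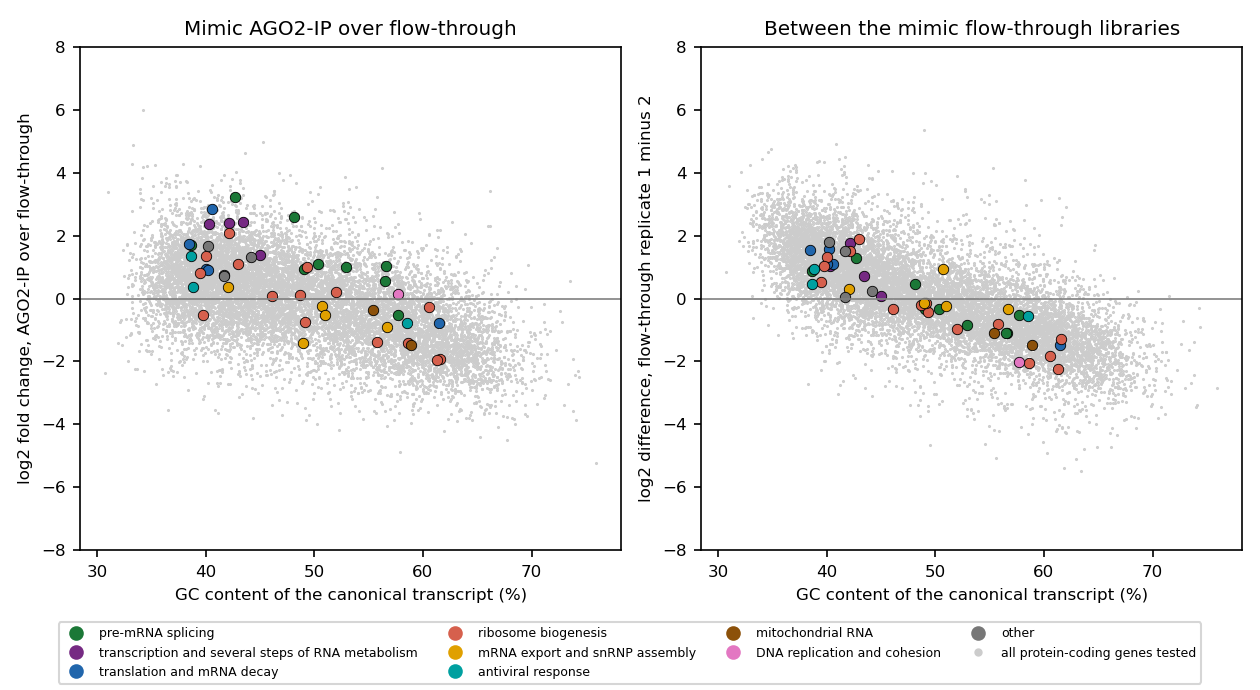
GC content of the canonical transcript (x axis, %) against the log2 fold change of mimic AGO2-IP over flow-through (left) and against the log2 difference between flow-through replicates 1 and 2 (right), with members coloured by role and all protein-coding genes tested in grey. Both panels slope downwards, with a rho over the members of -0.653 on the left and -0.855 on the right.

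The control cells gave the same ratio from 1 library of each fraction, for the 38 members whose counts summed to at least 200 over the pair. DHX15 was highest again, with a log2 ratio of 1.73 after TMM scaling, followed by DHX32 with 1.23 and DHX40 with 1.17. DDX59, DDX21 and DDX18 were lowest, with -0.96, -0.75 and -0.68. The median was 0.12, beside 0.01 over all 8245 genes with a ratio. A ratio of at least 1 was found for 5 members (15.9% of all genes) and one of at most -1 for 0 (18.1%).

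The direction of many control ratios changed with the scaling, in a pair of libraries whose flow-through was 43.4% mitochondrial. After TMM scaling 23 of the 38 members were above 0, and after scaling by library size alone 37 were. The median then was 1.01, beside 0.89 over all genes, and it was 0.24, beside 0.13, when mitochondrial genes were left out of the library sizes. DDX5 had 106 CPM in the control AGO2-IP (95% Wilson interval 99.6 to 114) and 63.4 CPM in the control flow-through (58.1 to 69.3), which gave 0.75 by library size alone and -0.14 after TMM scaling. The DHX15 ratio was above 0 with either scaling.

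**Figure D4:**
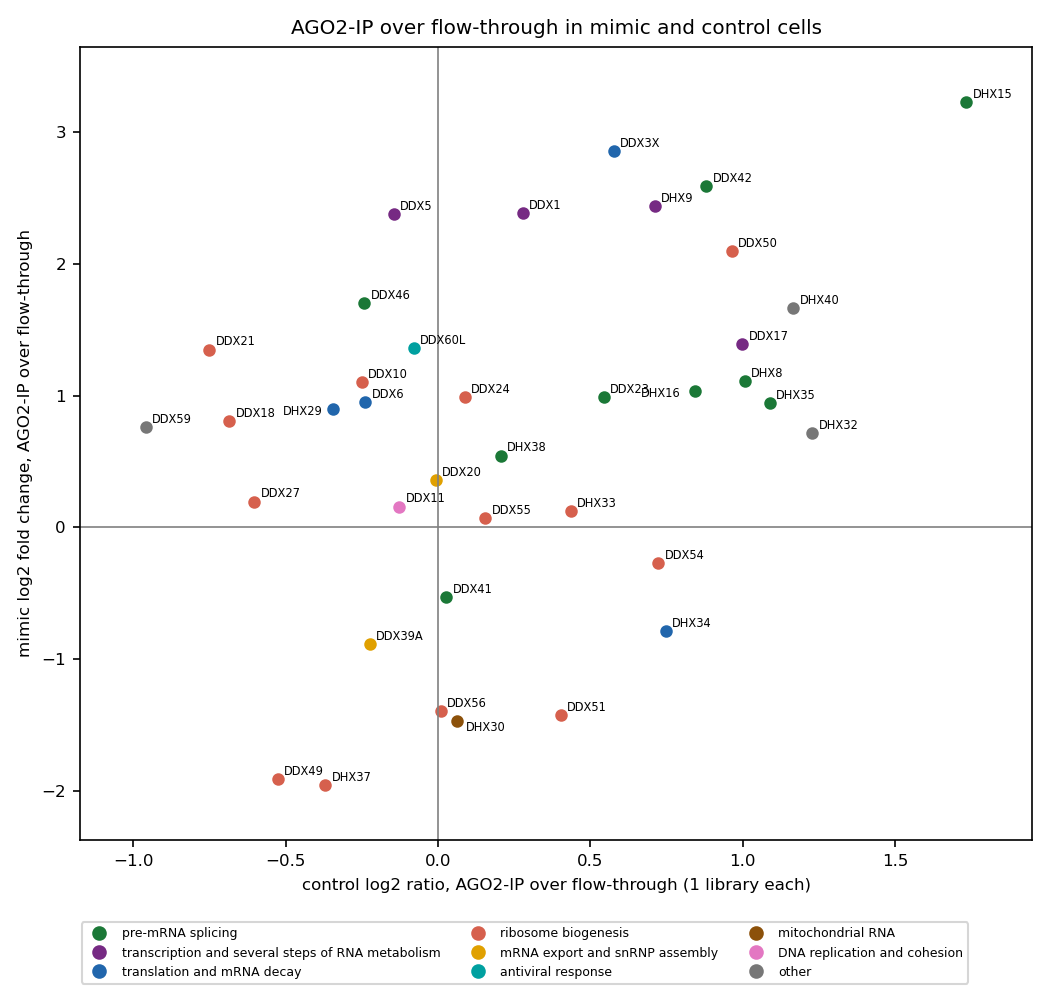
Control log2 ratio of AGO2-IP over flow-through after TMM scaling (x axis, 1 library per fraction) against the mimic log2 fold change (y axis, 2 libraries per fraction) for the 38 members with a control ratio, coloured by role. DHX15 stands at the upper right with 1.73 and 3.23, and DDX5, DDX46 and DDX21 lie above 1 on the y axis and below 0 on the x axis.

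Whether the ratio differed between mimic and control was tested for the 38 members as an interaction in edgeR over all 6 libraries, with the lone control libraries assumed to vary like the mimic replicates. None passed at a Benjamini-Hochberg adjusted p-value of 0.05, as none of the 8225 genes tested did (0%), and the lowest adjusted p-value was 0.974. Unadjusted p-values under 0.05 were found for 1 member, DDX5, and for 83 genes in all (1.01%). The interaction of DDX5 was 2.47 on the log2 scale (SE 1.12) in this edgeR fit. Without flow-through replicate 1 the same test called 10 of the 38 members and 17.9% of all genes, with the spread taken from the AGO2-IP pair alone.

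The study set the AGO2-IP of mimic cells against that of control cells, and here the helicase mRNAs were mostly higher in the mimic. DDX5, DDX21 and DHX9 had the highest log2 ratios, with 3.29, 2.94 and 2.92, and DDX1, DDX3X, DDX18, DHX36, DDX46, DDX24 and DHX15 stood above 2. The lowest were DHX58, DDX41 and DHX34 with -1.18, -0.74 and -0.61. DDX5 had 1113 and 807 CPM in the mimic AGO2-IP libraries and 106 CPM in that of the control. DDX21 had 310 and 397 CPM against 50.3 CPM, and DHX9 had 477 and 679 CPM against 82.7 CPM. In these 3 genes both mimic libraries lay far above the single control library.

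A log2 ratio of at least 1 was found for 22 of the 48 members (17.3% of the 11467 genes with a ratio), and in both mimic libraries for 21 (12.3%). A ratio of at most -1 was found for 1 member, DHX58 (17.4%), for which it held in both mimic libraries (12.1%). The median over members was 0.90, beside 0.02 over all genes. In the fit over all 6 libraries edgeR called 0 members and 0% of all genes higher, and 0 members lower (0.166%). An unadjusted p-value under 0.05 was found for 12 members (8.13% of all genes), and the lowest Benjamini-Hochberg adjusted p-value of a member in edgeR was 0.499. The ratio had a rho of -0.609 with GC content over the members and of -0.595 over all protein-coding genes.

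The flow-through, compared in the same way, was higher in the mimic for 44 of the 48 members, and the share of all genes above 0 was not computed. DHX30, DHX37 and DDX54 had the highest log2 ratios, with 1.99, 1.74 and 1.59. Against the control, flow-through replicate 1 gave 1.11, 0.48 and 0.53 for these genes and replicate 2 gave 2.74, 2.87 and 2.52. DDX59, DDX60L and DDX50 had the lowest ratios, with -0.64, -0.42 and -0.10. The flow-through ratio had a rho of 0.424 with GC content over the members and of 0.345 over all protein-coding genes. A ratio of at least 1 was found for 15 members (10% of the 12254 genes with a ratio), but in both mimic libraries for 4 (2.21%), and one of at most -1 for 0 (10.2%), or for 0 in both libraries (3.92%). The median was 0.80, beside 0.05 over all genes, and edgeR called 0 members higher (0%) and 0 lower (0.0979%), with 1 member at an unadjusted p-value under 0.05 (2.31%). The flow-through of DHX37 shows the spread, with 41.3 and 139 CPM in the mimic replicates and 16.3 CPM in the control.

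Both fractions together were higher in the mimic for 36 members, a count with no computed share of all genes beside it. By role, all 4 transcription helicases had an AGO2-IP ratio of at least 1, with a median of 2.80, and 1 of them a flow-through ratio of at least 1. Of the 9 splicing helicases 6 reached it in the AGO2-IP, with 3 in the flow-through, and of the 15 ribosome biogenesis helicases 6 and 7. Because these comparisons share libraries with each other and with the AGO2-IP to flow-through ratios, their values are set side by side only.

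**Figure D5:**
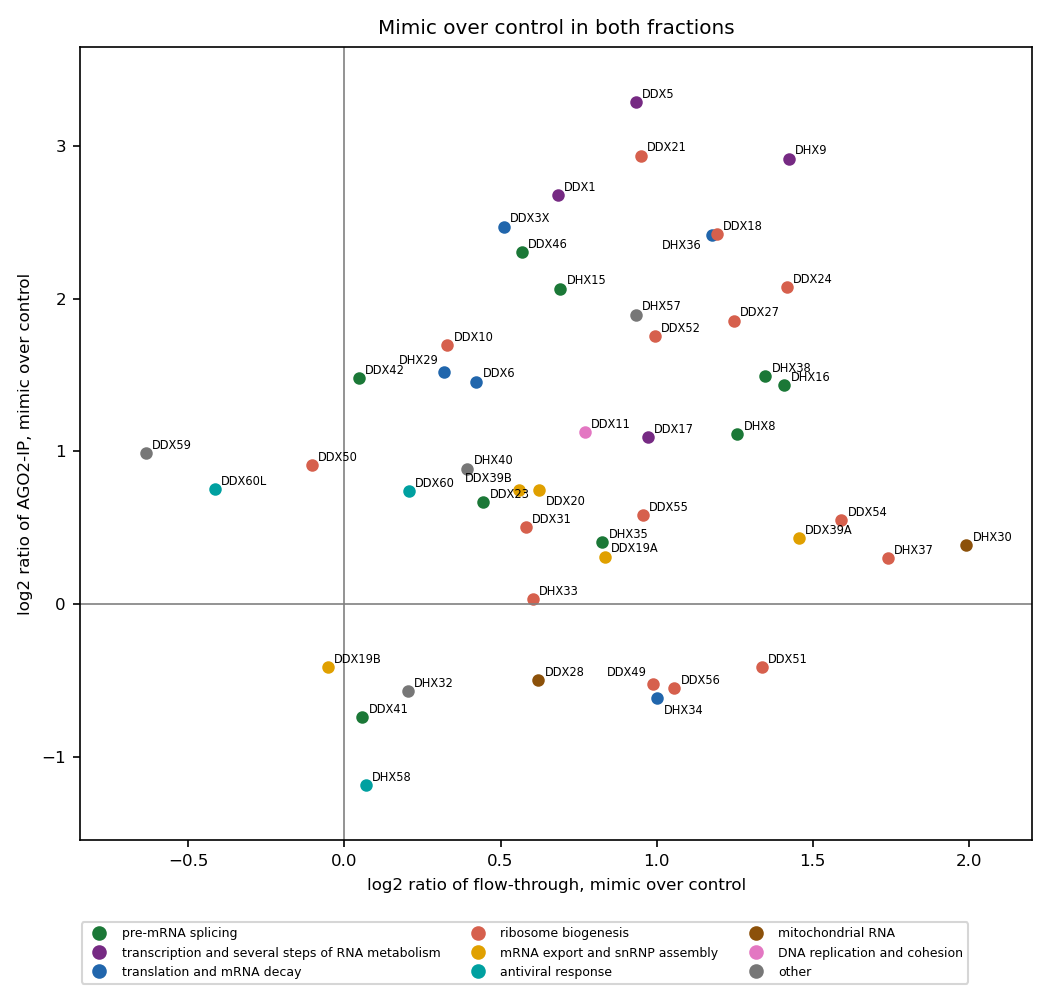
Log2 ratio of mimic over control in the flow-through (x axis) and in the AGO2-IP (y axis) for the 48 members, each against 1 control library and coloured by role. Most points lie in the upper right, with DDX5 highest at 3.29 on the y axis and DHX30 farthest right at 1.99.

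The genes that work with these helicases were followed from lists of 67 genes, of which 62 were tested in the mimic AGO2-IP over flow-through. None passed edgeR's call without the block, and 21 had an unadjusted p-value under 0.05, all but THOC6 with higher values in the AGO2-IP, where 10.6% of all genes were higher and 13.1% lower at that level. With the block 7 were called higher (4.6% of all genes) and none lower (5.08%). The 19 RNA helicases named otherwise had a median log2 fold change of 1.12, and 3 were called with the block, EIF4A2, a translation initiation helicase, ZNFX1, and DICER1, which cuts microRNA precursors. EIF4A2 had 1532 and 1085 CPM in the mimic AGO2-IP and 197 and 55.5 CPM in the flow-through, a log2 fold change of 3.45 (SE 0.69). DICER1 had 390 and 799 CPM against 133 and 49.8 CPM and a log2 fold change of 2.77 (SE 0.68).

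The 10 partners of DDX6 in decapping and repression had a median of 1.39, above the 0.95 of DDX6 itself. Of these, 1 was called with the block, the decapping enzyme DCP2, at 2.28 with it and 2.08 (SE 0.72) without it. The 17 G-patch partners of DEAH helicases had a median of 0.71 with no call. The 16 partners of DDX39B, DDX19B and DDX20 had a median of 0.55, and 3 were called with the block, the export adaptor ALYREF at 2.26 (SE 0.60), THOC3 of the THO complex at 2.77 (SE 0.71) and GEMIN2 of the SMN complex at 2.74 (SE 0.65).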

How the data were processed

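Per the labels and the study's methods, the authors sequenced RNA from the AGO2-IP and the flow-through of MDA-MB-231 cells, and processed the reads with FastQC 0.11.9, Cutadapt 3.5 for trimming and STAR 2.7.11b, whose 2-pass alignment to GRCh38 also gave the counts per Ensembl gene. The annotation release is not given in the sources used here. The deposited values are raw whole-number counts of 60708 genes per library, unstranded and for each strand, and the unstranded counts were used. The stranded counts split almost evenly, with 49% to 55.1% in column 3. Results on either strand are therefore no independent check of the unstranded ones. Only uniquely mapped pairs were counted, which lowers genes with near-identical copies such as DDX11. Rows that name no gene held 21.4% to 47.2% of read pairs in the mimic and 92.3% and 95% in the control libraries and were left out.

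Of the gene identifiers, 60463 were named through GENCODE 44 and 245 were not. Its canonical transcripts gave length, GC content and seed matches, and RefSeq (GRCh38.p14) gave the microRNA. CPM are counts per 1000000 gene counts of the library, without TMM. Libraries held 7772149 to 48544756 gene counts, and intervals are 95% Wilson intervals that cover counting error only, since reads carried no molecular identifiers.

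The main test was edgeR 4.0.16 (R 4.3.3), glmQLFit and glmQLFTest with TMM, over the 13078 genes whose counts summed to 200 or more, two-sided, with p-values adjusted by Benjamini-Hochberg over all of them. SE is the log2 fold change divided by the square root of F. The replicate number pairs an AGO2-IP with a flow-through, because both are labelled with the same biological replicate. Across genes, deviations of same-numbered libraries were correlated, with Pearson's r at 0.324 and Spearman's rho at 0.236. Control comparisons are log2 ratios of TMM-scaled CPM with a prior count of 2. The GC trend was removed with lowess offsets (span 0.2). PyDESeq2 0.5.4 and the size factors of DESeq2 1.42.0 were alternatives, with other scalings, count minimums, strands, prior counts and each replicate left out. Scripts were tested on simulated data.

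Members, role classes and lists of related genes were chosen with earlier results of these data known. Named members are those called with or without the block, the 5 highest and 5 lowest in the main comparison, the 3 highest and lowest in each comparison with or within the control, and 11 set by name. DDX10, DDX11, DDX20, DDX23, DDX24, DDX56, DDX60, DHX8, DHX16, DHX29, DHX35, DHX38, DHX57 and DDX19A are named outside this rule, for their class, a sequence match or a count, after their values were seen.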

Additional observations from a re-analysis of the deposited data

Results flagged for a closer look

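For 12 of the 38 members with a control ratio both AGO2-IP libraries of the mimic lay on one side of both flow-through libraries and the TMM-scaled control ratio pointed the other way, as it did for 11.6% of the 8225 genes compared. The difference between the mimic and the control ratio was tested in edgeR's interaction, and none of the 12 passed. The mimic minus control difference in the log2 ratio was 2.47 for DDX5, 2.04 for DDX21, 1.88 for DDX46, 1.44 for DDX18, 1.38 for DDX60L, 1.30 for DDX10, 1.18 for DHX29, 1.13 for DDX6 and 0.31 for DDX20, which were higher in the mimic AGO2-IP. It was -0.61 for DDX41, -1.46 for DDX56 and -1.58 for DHX30, which were lower in it. Several of the TMM-scaled control ratios were close to 0, with -0.006 for DDX20, 0.01 for DDX56, 0.03 for DDX41, 0.06 for DHX30 and -0.08 for DDX60L. The remaining ones ran from -0.14 for DDX5 to -0.75 for DDX21. With 1 control library per fraction, the direction of ratios so close to 0 is not settled. With library size alone in place of TMM in the control, the first 9 had control ratios above 0, and opposite directions were then found for 6 members (16.9% of all genes), DDX41, DDX56, DHX30, DDX39A, DDX49 and DHX37. The control flow-through was 43.4% mitochondrial, and the control median of the members was 0.12 with TMM, 1.01 by library size and 0.24 by library size without mitochondrial genes.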

How the results depend on the processing

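The number of members called in the mimic AGO2-IP over flow-through was 0 with TMM, DESeq2's size factors or library size alone, either strand, all 6 libraries in one fit and protein-coding genes only. It was 2 with a summed count of at least 10 and 1 with at least 50 counts in each library. For these settings the share of all genes was not computed. It was 7 with the replicate block, where 4.6% of all genes were called higher and 5.08% lower. With the GC trend removed it was 6 (4.58% and 2.24%), with both 15 (14.9% and 9.04%) and with PyDESeq2 9 (6.45% and 8.26%). It ranged from 0 to 23 with 1 library left out, 23 without flow-through replicate 1 (17 higher and 6 lower) and 3 without flow-through replicate 2. Calls among the 62 related genes were 0 at first and 2, 1, 7, 12, 26 and 12 in that order, and 0 to 33 with 1 library left out. The interaction gave 0 to 10 calls with 1 library left out. The median of the members in the mimic comparison was 1.05 with a summed count of at least 10, 0.64 with 50 counts in each library, 0.56 with the GC trend removed with or without the block, and 0.51 to 0.70 with 1 library left out. The control median was 1.01 by library size, 0.24 without mitochondrial genes and 0.26 on the strand of column 4. The mimic over control AGO2-IP median was 0.73 to 1.08 with 1 library left out. The flow-through median was 0.76 in the fit over all 6 libraries, 0.74 with DESeq2's size factors, 1.27 by library size (0.52 over all genes), 0.45 without mitochondrial genes, 0.65 on the strand of column 4, 0.87 with a summed count of at least 50, and 0.64 to 0.69 with 1 library left out.

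Of the 28 members named by rule, 5 changed sign under some alternative. With the GC trend removed, without and with the block, DDX54 came to 1.10 and 1.04, DDX41 to 0.32 and 0.33, DHX34 to 0.57 and 0.57 and DHX58 to 0.14 and 0.14. With a summed count of at least 10, DDX39B came to 0.069 and DDX54 to 0.22. With 1 library left out, DDX39B ranged from -0.73 to 0.31, DDX54 from -0.91 to 0.91 and DHX34 from -1.34 to 0.12. The cause was not tested. Over these 28 members and all alternatives, 376 other values kept their direction and their side of the call and 57 passed it with the same direction. Without GC removal the block changed the call of no member beyond the 7. Control ratios rest on 204 to 3038 counts per pair, and 10 members were too low for one.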
